A study of Mus musculus with 16 samples.

Results

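The genes described here are Wnt11, Ret and the genes that share their pathways in the ureteric bud and collecting duct, 7 members of the 57186 genes in the deposited table. They were chosen by symbol as Wnt11, Ret, Gdnf, Gfra1, Wnt4, Wnt7b and Wnt9b. The choice rests on a readout of these data, since Wnt11 was picked because its counts fell from the D_C to the D_B12 libraries. All 7 members had at least 100 counts in total and were among the 25408 genes that entered the fit. The counts come from RNA sequencing of kidneys of 16 male mice, 4 in each of 4 groups. All mice were Elmo1H/H, a genotype with raised expression of Elmo1, on a C57BL/6J background. The ND_C group was Elmo1H/HIns2+/+, non-diabetic and given no B12, and the ND_B12 group was of the same genotype and received B12. The D_C group was diabetic through the Ins2Akita/+ variant of the insulin gene and received no B12, and the D_B12 group was Elmo1H/HIns2Akita/+ with B12. B12 was given in drinking water at 10 mg per kg of body weight per day from 8 weeks of age. The labels give 16 weeks of treatment, and the methods give mice of 16 weeks at collection, which leaves 8 weeks. All groups therefore share the Elmo1H/H genotype, and the data hold no mice with a wild-type Elmo1 gene. The kidney was sequenced as a whole, so fewer cells of a type and less RNA per cell cannot be told apart.

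In the developing kidney, GDNF from the mesenchyme binds the coreceptor GFRA1 and activates the receptor tyrosine kinase RET at the tips of the ureteric bud. WNT11 is a secreted ligand of the bud tips whose expression depends on RET signalling, and it takes part in branching. WNT9B from the bud stalk induces nephron formation through WNT4, and WNT7B from the collecting duct patterns the medulla. Adult collecting ducts keep some expression of these Wnt genes.

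The regions before the starts of Wnt11 and Wnt9b are shown because the counts of Wnt11 were assigned to transcripts from 2 starts, and because Wnt9b moved with Wnt4 and Wnt7b across libraries. RefSeq windows on GRCm38.p6 were found for 5 of the 7 members, and none for Ret and Wnt7b. Each window was placed on GRCm39 by an exact match, and the 250 bases before the start were searched on both strands for 4 motifs. The TCF/LEF motif was read as CTTTGA and, with another last base, as CTTTGT. The GATA motif was AGATAA. The E-box was searched as CACGTG. The GC box was GGGCGG. Capitals mark every match. The windows of Wnt4 and Gfra1 lie in annotated exons and are not printed. Each sequence runs 5′ to 3′ on the strand of its gene.
Wnt11, first start, chr7:98484069-98484318, plus strand: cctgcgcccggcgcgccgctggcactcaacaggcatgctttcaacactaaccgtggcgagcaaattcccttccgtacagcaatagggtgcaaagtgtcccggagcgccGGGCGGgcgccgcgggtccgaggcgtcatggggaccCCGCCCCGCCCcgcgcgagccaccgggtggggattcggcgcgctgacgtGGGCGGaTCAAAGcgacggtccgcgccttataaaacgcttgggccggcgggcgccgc
Wnt11, second start, chr7:98487802-98488051, plus strand, inside the gene and in no exon of Wnt11: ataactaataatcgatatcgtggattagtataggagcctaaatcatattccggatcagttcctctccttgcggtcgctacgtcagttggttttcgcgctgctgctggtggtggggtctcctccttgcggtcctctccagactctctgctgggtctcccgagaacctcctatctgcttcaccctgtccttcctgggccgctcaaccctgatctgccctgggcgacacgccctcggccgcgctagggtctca
Wnt9b, chr11:103640656-103640897, minus strand, 242 bases that end at the first annotated exon: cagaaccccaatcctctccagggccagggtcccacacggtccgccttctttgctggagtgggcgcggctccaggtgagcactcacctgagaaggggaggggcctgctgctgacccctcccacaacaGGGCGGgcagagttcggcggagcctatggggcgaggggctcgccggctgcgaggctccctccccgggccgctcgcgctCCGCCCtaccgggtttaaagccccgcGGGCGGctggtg
The first Wnt11 window held 1 TCF/LEF match, from 50 to 45 bases before the start, and 4 GC boxes, of which 2 share a base. The second Wnt11 window held no match to any of the 4 motifs. The Wnt9b window held 3 GC boxes, and the Wnt4 window, not printed, held 8. Over all 32851 windows of this length in the table, 27.6% held a TCF/LEF match, 32.7% a GC box, 10.0% the GATA motif and 6.0% the E-box. The GC content was 70.8% before the first Wnt11 start, 56.8% before the second and 72.0% in the 250 bases of Wnt9b.

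Total counts ran from 65271308 to 91771136 per library. Markers of the kidney were abundant in every library, with a summed normalized count of 782744 to 1035806 for the 5 proximal tubule markers and 26770 to 56105 for the 8 markers of collecting duct principal cells. Of the 4 adrenal markers, Cyp11b1 and Cyp11b2 had no count in any library, Cyp11a1 had none in 11 and at most 13.9, and Star ran from 286 to 544. Among the peripheral neuron markers, Th had no count, Dbh and Prph reached at most 5.80, and Stmn2 and Uchl1 were present in every library. The 5 adipocyte markers summed to 23.1 to 11501 over the libraries, with overlapping ranges in all groups. The labels and group means released with the study place libraries differently. For 158 genes, none of them a member, those means were compared with the mean of each of the 1820 sets of 4 libraries. By the closest sets, 5 of the 16 libraries fell in the group of their label and 11 in another. Of these 11, 2 libraries changed diabetes status, which were ND_B12 4 and D_C 1. The 4 libraries labelled D_B12 came closest to the untreated diabetic means, and ND_B12 4 with D_C 2, D_C 3 and D_C 4 to the treated diabetic means. Groups and directions below are those of the labels, and the other assignment would put the libraries labelled D_B12 in the untreated diabetic group and 3 of the 4 labelled D_C in the treated one. The library names carry dates, and no date holds libraries of both groups in D_C against ND_C, D_B12 against ND_B12 or D_B12 against D_C, so date and group cannot be told apart there.

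Levels below are normalized counts, each scaled to its library by a median-of-ratios size factor, and group values are mean ± SD (n = 4). Per kilobase of annotated exon, Wnt7b had the highest median level of the 7 members over the 16 libraries, with a normalized count of 105 per kb. Gfra1 followed at 46.9 per kb, Wnt9b at 34.5, Wnt4 at 24.5 and Wnt11 at 13.4. Ret and Gdnf were lowest, at 3.21 and 2.92 per kb. The order differed between groups. By group medians, Wnt9b at 73.7 and Wnt4 at 50.2 per kb were above Gfra1 at 36.7 in D_C, and Wnt11 at 20.8 was above Wnt4 at 19.2 in ND_B12. Neighbours in the overall order overlapped in range over the libraries. Wnt7b ran from 59.9 to 281 per kb and Gfra1 from 19.4 to 81.1 per kb.

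Wnt11 (ENSMUSG00000015957) lies on the plus strand of chromosome 7 at 98484319-98504402 of GRCm39. The predicted genes Gm33770 and Gm8398 overlap it on the opposite strand. The methods assign strand to spliced alignments from intron motifs and state no strand setting for the counting. In ND_C libraries 1 to 4 the normalized counts of Wnt11 were 65.1, 122, 53.2 and 71.0. In ND_B12 they were 186, 142, 68.4 and 29.0. In D_C they were 162, 69.5, 67.5 and 113, and in D_B12 22.1, 36.3, 40.5 and 18.2. The D_B12 libraries were all below every library of ND_C and D_C, and 1 ND_B12 library, ND_B12 4, lay among them. The ND_B12 group spread most, with its highest library 6.4 times its lowest.

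The mean normalized count of Wnt11 was 29.3 ± 10.8 in D_B12, 77.9 ± 30.5 in ND_C, 103 ± 44.4 in D_C and 106 ± 70.6 in ND_B12. Of these neighbours, D_B12 and ND_C did not overlap, and the other neighbouring groups did. The log2 fold change from D_C to D_B12 was -1.79 ± 0.48 (SE), which is 0.288-fold. This contrast chose the gene, so the value is a description with no test. Groups that do not overlap were found for 6.58% of all tested genes in this comparison, and for 3.18% with D_B12 lower. Over the alternatives the value ran from -1.99 to -1.29. By the group means released with the study, the untreated diabetic libraries would be the 4 at 18.2 to 40.5 and the treated ones ND_B12 4, D_C 2, D_C 3 and D_C 4, at 29.0, 69.5, 67.5 and 113, which puts the higher values with B12. No fit was made on that assignment. Against ND_B12 the D_B12 libraries had a log2 fold change of -1.84 ± 0.49 for Wnt11, and D_C against ND_C had 0.40 ± 0.46, both again described with no test because they share libraries with the rule.

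The comparison of ND_B12 with ND_C asked what B12 does in non-diabetic kidneys and used no library of the rule's contrast. There Wnt11 had a log2 fold change of 0.45 ± 0.46 and an adjusted p-value of 0.866 in edgeR's quasi-likelihood test. Of the 4 ND_B12 libraries, 2 lay above every ND_C library and 1 below every one. The adjusted p-value ran from 0.804 to 1 over the alternatives. The only date that holds both groups carries ND_C 4, with a normalized count of 71.0, and ND_B12 1, with 186, which gives 1 library for each group and no test.

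**Figure D1:**
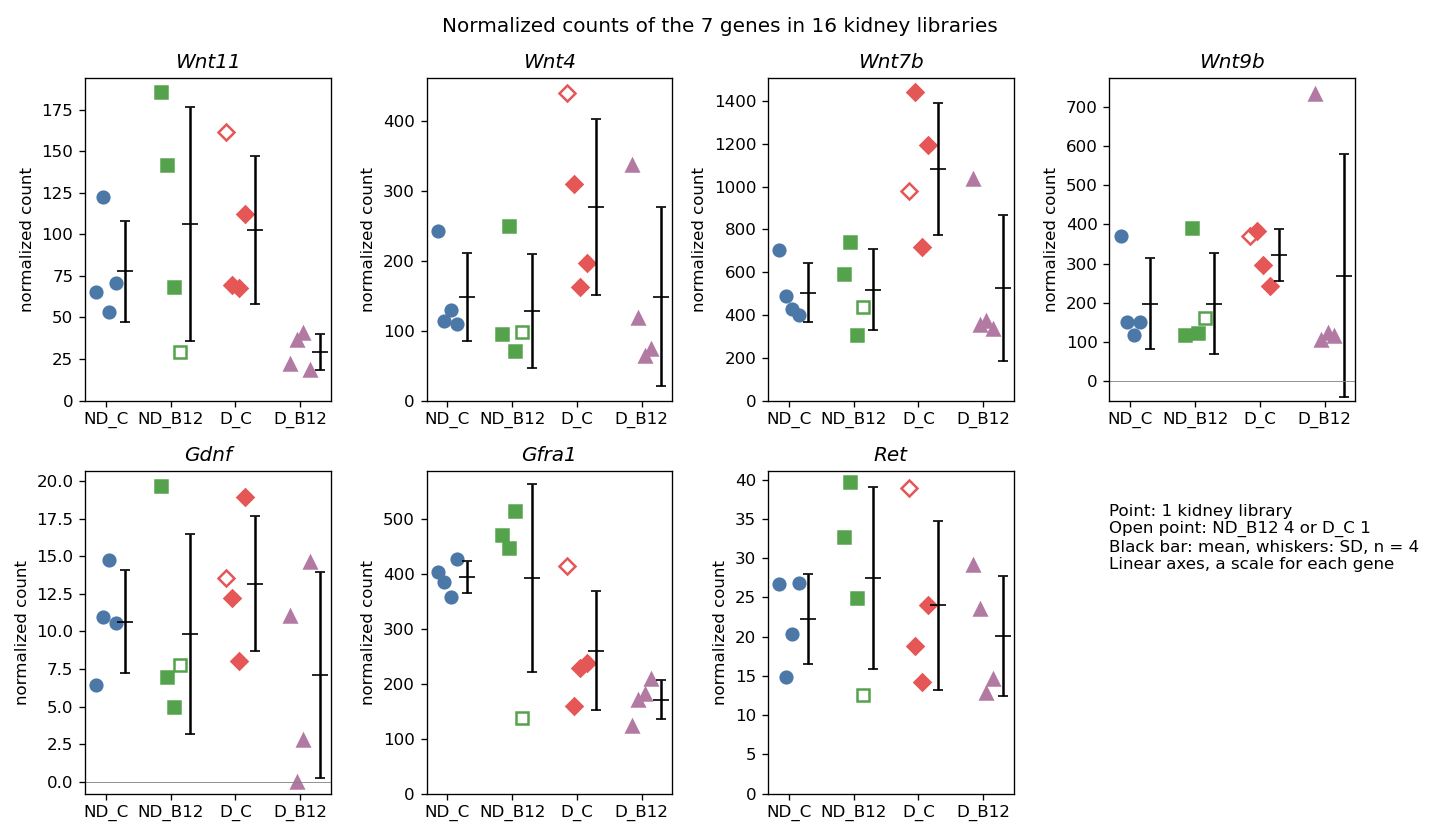
Normalized counts of the 7 genes on linear axes, 1 point per kidney library in each labelled group, with the mean and SD (n = 4) beside the points. All Wnt11 points of D_B12 lie at or below 40.5, Gfra1 splits into 8 libraries at 123 to 239 and 8 at 359 to 516, and open points mark ND_B12 4 and D_C 1.

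Gdnf (ENSMUSG00000022144, chromosome 15, 7840327-7867060, plus strand) encodes the RET ligand and was near the limit of detection. Its normalized counts were 6.40, 10.9, 14.7 and 10.6 in ND_C. They were 19.7, 6.95, 4.97 and 7.74 in ND_B12. In D_C they were 13.6, 12.2, 8.00 and 18.9, and in D_B12 11.0, 0, 2.76 and 14.6. The groups overlapped in every comparison, and D_B12 2 had no Gdnf count at all. A few counts decide each of these values.

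Gfra1 (ENSMUSG00000025089, chromosome 19, 58223212-58444346, minus strand) encodes the coreceptor that presents GDNF to RET. Gm16277 and Gm41876 overlap it on the opposite strand. Its normalized counts in ND_C were 403, 387, 359 and 428. In ND_B12 they were 471, 448, 516 and 138, in D_C 415, 160, 228 and 239, and in D_B12 123, 171, 182 and 209. The counts fell into 2 sets of 8 libraries with nothing between 239 and 359. The lower set held the 4 D_B12 libraries, D_C 2, D_C 3, D_C 4 and ND_B12 4, and the upper set held all ND_C libraries, ND_B12 1, ND_B12 2, ND_B12 3 and D_C 1. The exceptions to the labelled diabetes status are thus ND_B12 4 and D_C 1, the same libraries that changed diabetes status in the comparison with the group means.

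In D_B12 against ND_B12 the log2 fold change of Gfra1 was -1.20 ± 0.33, and the adjusted p-value of 0.0871 in edgeR's quasi-likelihood test missed the threshold of 0.05. The unadjusted p-value in edgeR was 0.00233. DESeq2 gave an adjusted p-value of 0.00871. Without ND_B12 replicate 4 the log2 fold change was -1.48 and edgeR's adjusted p-value 0.0158. In D_C against ND_C the value was -0.60 ± 0.32 with an adjusted p-value of 0.343. Without ND_B12 4 and D_C 1, an alternative chosen after seeing the data, the log2 fold changes were -0.92 in D_C against ND_C and -1.48 in D_B12 against ND_B12, with adjusted p-values of 0.00759 and 0.00088 in edgeR. These libraries were set aside for their place among the group means, so the smaller p-values are not independent evidence. In ND_B12 against ND_C the log2 fold change was -0.0038 ± 0.32 and turned to 0.28 without ND_B12 4.

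Ret (ENSMUSG00000030110, chromosome 6, 118128706-118174769, minus strand) encodes the receptor itself. Its normalized counts were 26.7, 14.9, 20.4 and 26.9 in ND_C. They were 32.8, 39.7, 24.9 and 12.6 in ND_B12. In D_C they were 39.0, 18.8, 14.2 and 24.1, and in D_B12 29.1, 23.6, 12.9 and 14.6. No pair of groups was separated, and the highest group mean was 27.5, in ND_B12. The adjusted p-values of Ret in edgeR's quasi-likelihood test were 0.894 in ND_B12 against ND_C, 0.917 in D_C against ND_C and 0.602 in D_B12 against ND_B12.

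The other 3 members are Wnt ligands of the duct and the early nephron. Wnt4 (ENSMUSG00000036856, chromosome 4, 137004373-137027037, plus strand) had normalized counts of 242, 113, 129 and 109 in ND_C. It had 95.0, 249, 70.9 and 98.6 in ND_B12. It had 440, 310, 162 and 197 in D_C, and 337, 118, 64.4 and 74.1 in D_B12. In each group except D_C 1 library was far above the others, which were ND_C 1, ND_B12 2 and D_B12 1.

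Wnt7b (ENSMUSG00000022382, chromosome 15, 85419638-85466674, minus strand, overlapped on the other strand by AU022754) is the Wnt member with the highest level per kb. Its normalized counts were 702, 489, 427 and 398 in ND_C and 590, 741, 307 and 436 in ND_B12. They were 980, 1443, 717 and 1194 in D_C and 1035, 355, 371 and 335 in D_B12. Every D_C library was above every ND_C library. Groups that do not overlap were found for 9.45% of all genes in that comparison, and for 4.86% with D_C higher.

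Wnt9b (ENSMUSG00000018486, chromosome 11, 103618189-103640655, minus strand) had normalized counts of 370, 150, 119 and 151 in ND_C. It had 119, 390, 122 and 161 in ND_B12. It had 371, 382, 296 and 242 in D_C, and 734, 104, 123 and 114 in D_B12. ND_C 1, ND_B12 2 and D_B12 1 again stood above the rest of their groups.

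The same 7 libraries held the 7 highest counts of Wnt4, of Wnt7b and of Wnt9b. They were the 4 D_C libraries with ND_C 1, ND_B12 2 and D_B12 1. Wnt4 ran from 162 to 440 in these 7 and from 64.4 to 129 in the other 9, Wnt7b from 702 to 1443 against 307 to 590, and Wnt9b from 242 to 734 against 104 to 161. Since the counts fell into 2 sets, no correlation over all 16 libraries is given. Within the 7 libraries Pearson's r of log2 CPM was 0.59 for Wnt4 with Wnt9b, 0.38 for Wnt4 with Wnt7b and 0.05 for Wnt7b with Wnt9b. Within the other 9 it was 0.18, 0.46 and 0.34, as a description over libraries that share depth and preparation.

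Marker levels moved with these 7 libraries in part. The summed normalized count of the 6 inner medulla and thin limb markers had a median of 12646 in the 7 libraries, ranging from 7665 to 19587, against 7500 in the other 9, ranging from 4976 to 9190. The 8 principal cell markers had a median of 45468 (30973 to 56105) against 31198 (26770 to 39759). In this sum Aqp2 alone ran from 4054 to 27158 over the 16 libraries. The 7 urothelium markers had a median of 2804 (1920 to 4474) against 961 (134 to 2683). D_B12 1 was highest of its group in all of these sums, with 14276, 45468 and 3214. ND_B12 2, with 7665, 36966 and 1965, was below ND_B12 4, with 8055, 39759 and 2255. ND_C 1 was highest of its group for inner medulla and urothelium, with 8739 and 2950. Its principal cell sum of 30973 was below the 31198 of ND_C 4. Upk3a and Upk2, which define urothelium, had no count in D_B12 4 and were present in every other library. The part of tissue composition in the Wnt counts was not tested.

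**Figure D2:**
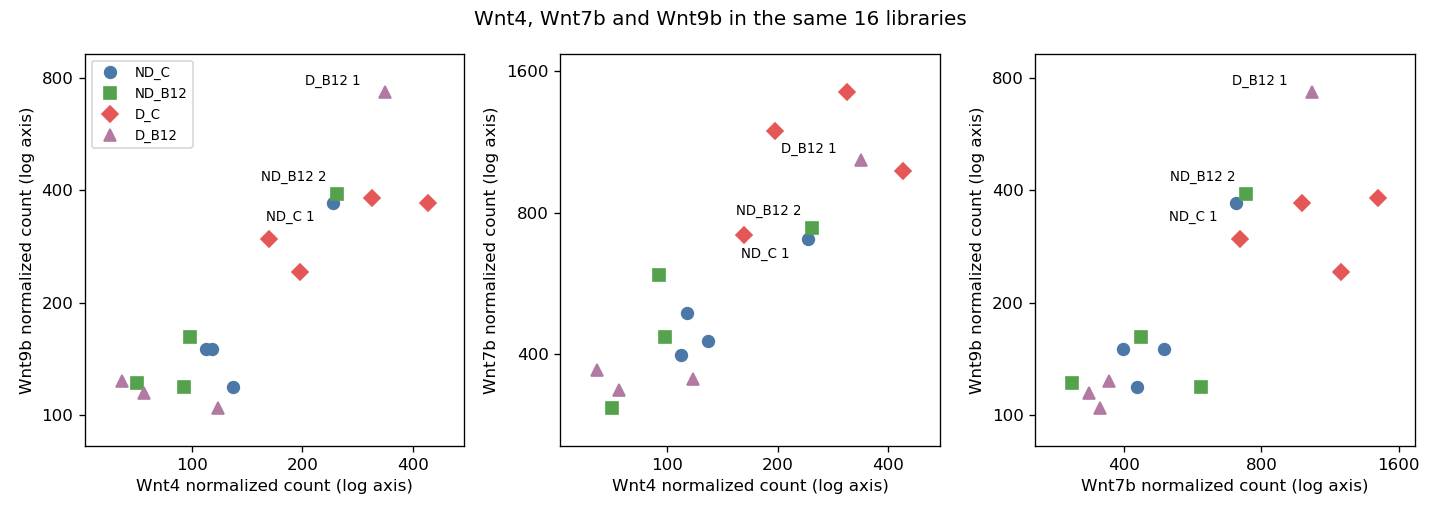
Normalized counts of Wnt4, Wnt7b and Wnt9b plotted against each other on log axes, 1 point per library with the shape and colour of its labelled group. The 4 D_C libraries and the named libraries ND_C 1, ND_B12 2 and D_B12 1 form the upper set in each panel, and the other 9 form the lower set.

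Diabetes in untreated kidneys was addressed by D_C against ND_C, in which the D_C libraries are shared with the rule's contrast. None of the 6 tested members passed an adjusted p-value of 0.05 in edgeR's quasi-likelihood test, where 1.66% of all 25408 genes did. At an unadjusted p-value below 0.05 there was 1, which was Wnt7b, beside 18.6% of all genes, and DESeq2 called none of them at 0.05 after adjustment. Wnt7b was at 1084 ± 309 in D_C and 504 ± 137 in ND_C, a log2 fold change of 1.10 ± 0.36 with an adjusted p-value of 0.111. Without D_B12 replicate 1, which is in neither compared group, its adjusted p-value in edgeR was 0.0448 and its log2 fold change 1.097. That library enters the normalization and the estimate of spread. Wnt4 was at 277 ± 125 and 149 ± 63.0, with a log2 fold change of 0.90 ± 0.51 and an adjusted p-value of 0.365. Wnt9b was at 323 ± 66.0 and 198 ± 116, with a log2 fold change of 0.71 ± 0.59 and an adjusted p-value of 0.568. Gdnf had a log2 fold change of 0.30 ± 0.66 and Ret of 0.11 ± 0.39.

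The 6 tested members gave no call either in D_B12 against ND_B12, where 0.823% of all genes passed, by edgeR at an adjusted p-value of 0.05. At an unadjusted p-value below 0.05 there was 1, which was Gfra1, beside 17.0% of all genes. The mean of Wnt7b was 524 ± 341 in D_B12 and 519 ± 188 in ND_B12, a log2 fold change of 0.01 ± 0.36, and it was -0.54 without D_B12 replicate 1. Wnt4 had 0.20 ± 0.52 and -0.58 without that library, and Wnt9b had 0.44 ± 0.59 and -0.79 without it. All 3 thus turned sign without D_B12 1. In ND_B12 against ND_C, 0 of the 7 members passed, as did 0.0% of all genes by edgeR, while 1937 genes (7.62%) but no member had an unadjusted p-value below 0.05 and DESeq2 called 6 genes. The log2 fold changes of the 3 Wnt genes there were -0.20 ± 0.52 for Wnt4, 0.05 ± 0.36 for Wnt7b and 0.02 ± 0.59 for Wnt9b.

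In D_B12 against D_C, described with no test, all 7 members had a negative log2 fold change, as did 12724 of all 25408 genes. Beside Wnt11 at -1.79, the values were -1.04 ± 0.36 for Wnt7b, -0.93 ± 0.68 for Gdnf, -0.90 ± 0.51 for Wnt4, -0.61 ± 0.33 for Gfra1, -0.26 ± 0.58 for Wnt9b and -0.26 ± 0.39 for Ret. Of the 4 D_B12 libraries, 3 lay below every D_C library for Wnt4, Wnt7b and Wnt9b, and D_B12 1 did not. Wnt11 was the only member whose groups did not overlap. With the label date as a covariate the values of Wnt4, Wnt9b and Ret became 0.81, 1.10 and 0.70, and Wnt7b -0.11. With single libraries left out, Ret ran from -0.48 to 0.093, positive without D_C 1, and Wnt9b from -1.49 without D_B12 1 to 0.01 without D_B12 2. Without D_B12 1, Wnt4 was at -1.68 and Wnt7b at -1.60. Gdnf ran from -1.52 without D_B12 4 to -0.50 without D_B12 2, and Gfra1 rose to -0.27 without D_C 1. The summed principal cell markers ran from 27096 to 45468 in D_B12 and from 36644 to 56105 in D_C. Aqp2 alone ran from 6943 to 20632 in D_B12 and from 9356 to 27158 in D_C.

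**Figure D3:**
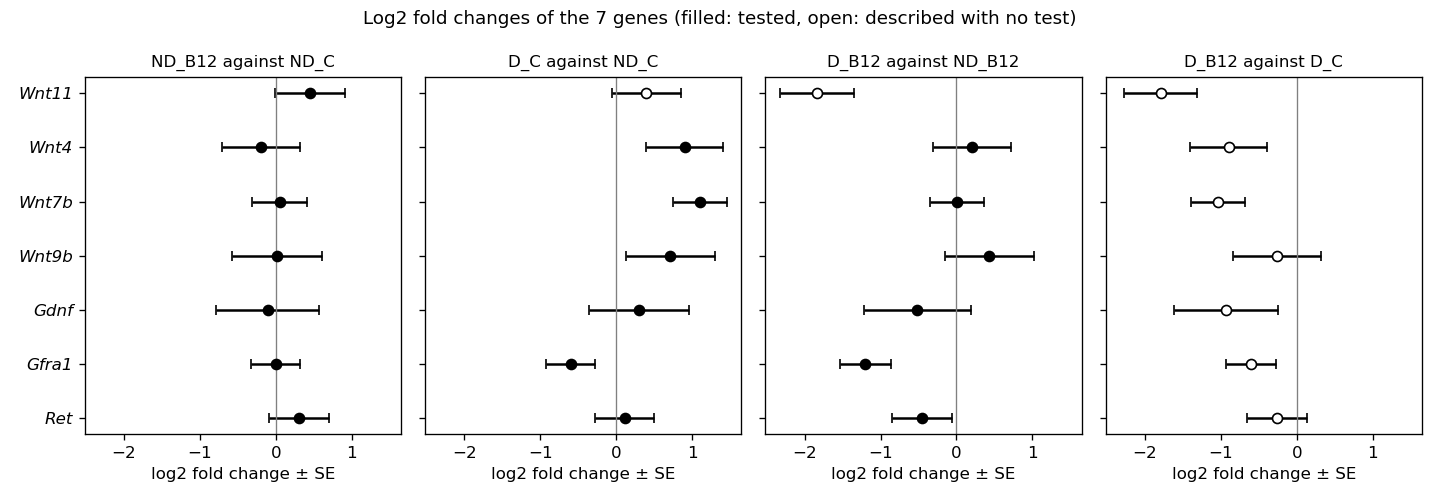
Log2 fold changes of the 7 genes in the 4 comparisons, the first group of each name minus the second, with bars of 1 SE from edgeR's fit on all 16 libraries. Filled points were tested and open points were not, and the farthest points from 0 are Wnt11 in both comparisons that hold D_B12 libraries, at -1.84 and -1.79.

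The genes with the pattern most like Wnt11 were ranked by Pearson's r of log2 CPM over the 16 libraries among 23507 genes with a mean normalized count of at least 10. Ppp1r1b, which encodes the phosphatase inhibitor DARPP-32, came first with r of 0.91, followed by Lrrc75b at 0.87, Wfdc15b at 0.86, Prdm16os at 0.85 and Dock8, an activator of the GTPase CDC42, at 0.85. Ppp1r1b had normalized counts of 2148 to 2483 in D_B12 and 3838 to 4502 in D_C, and ND_B12 4, at 2501, was the lowest library outside D_B12. Wnt11 is lowest in the same 5 libraries. By Spearman's rho, 3 of these 5 genes were again among the first 5, which were Ppp1r1b, Lrrc75b and Dock8.

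After the group means were subtracted, the first 5 genes were Gm44999 (r of 0.93), Gm9118, Ttc16, Gm10734 and AU040972 (0.88), none of which was in the first list. Their r over the 16 libraries ran from -0.04 to 0.68. The 5 genes of the first list still had r of 0.70 (Wfdc15b) to 0.84 (Ppp1r1b) after the group means were subtracted. Among the other members, Ret ranked 948 with r of 0.53, Wnt7b 2970, Gdnf 3524, Wnt4 4210 and Wnt9b 8384. Gfra1 ranked 97, and as its counts fell into 2 sets, r with Wnt11 is given within them, where it was 0.27 in the 8 higher and 0.54 in the 8 lower libraries. All these values are descriptions over libraries that share groups and preparation.

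**Figure D4:**
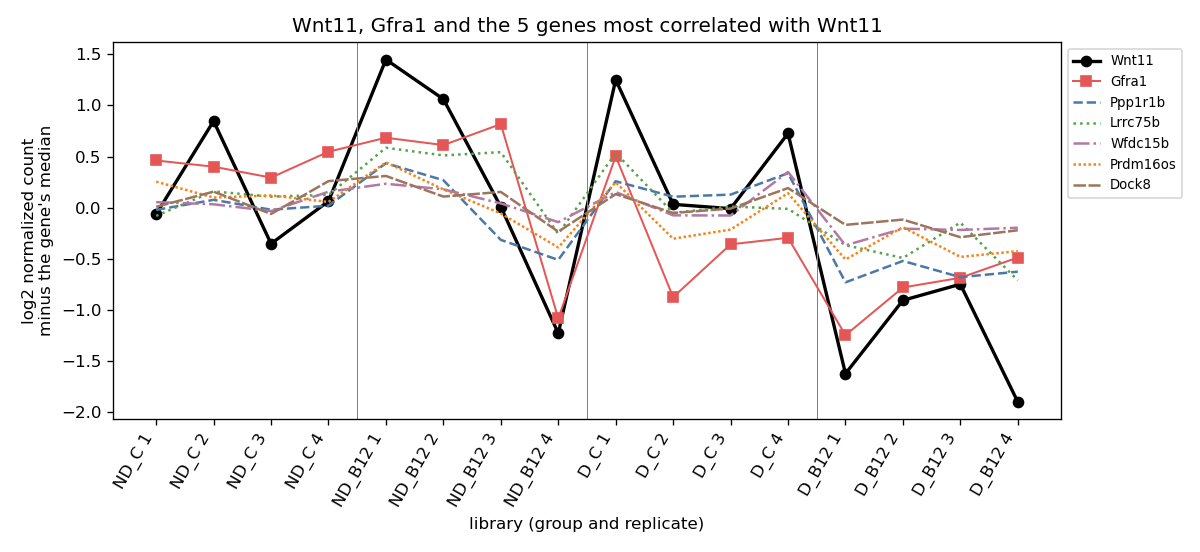
Log2 normalized count of Wnt11, Gfra1 and the 5 genes with the highest Pearson's r to Wnt11, each minus the median of the gene over the 16 libraries, with libraries in the order of their labels and grey lines between groups. The lines of Wnt11 and Ppp1r1b are lowest in ND_B12 4 and the 4 D_B12 libraries.

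The wider pathways were followed in 8 lists of 105 genes, of which 92 were tested, 11 had too few counts and 2 symbols were not matched. In ND_B12 against ND_C none of the 92 passed in edgeR's quasi-likelihood test. The 14 planar polarity and Dishevelled genes had a median log2 fold change of 0.19 and were all positive in sign, where the median over all genes was 0.0019, and 7 of them had an unadjusted p-value below 0.05 and were higher, against 3.67% of all genes. This was not limited to that list. Of the 15 tested Wnt receptors 13 were positive and 2 negative, and the 8 intercalated and 5 endothelium markers were all positive. Their median log2 fold changes were 0.11, 0.24 and 0.22. The 6 B cell and plasma cell, 4 T cell and 5 macrophage markers were all negative in sign. Vangl2, a core planar polarity gene, was at 393 ± 53.6 in ND_B12 and 308 ± 20.4 in ND_C, with an adjusted p-value of 0.602 in edgeR. Lrp6, a Wnt coreceptor, was at 32340 ± 1263 and 27755 ± 894, with a log2 fold change of 0.23 ± 0.06 and an adjusted p-value of 0.57 in edgeR. Gfra4, Znrf3 and Nkd2 had log2 fold changes of 0.47, 0.14 and -0.63. Myb was near the limit of detection, at 2.18 ± 3.73 in ND_B12 and 11.2 ± 9.51 in ND_C. None of these genes passed the test.

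In D_C against ND_C, 4 of the 92 genes passed, 3 higher, beside 0.937% of all genes, and 1 lower, beside 0.728%. Dchs1 and Fat4, a pair of large cadherins that bind each other, and Celsr1, a planar polarity cadherin, rose in D_C, and all 3 are among the 14 planar polarity and Dishevelled genes. Dchs1 was at 1345, 1222, 1074 and 1120 in ND_C and 1568, 1849, 2049 and 1593 in D_C. Its log2 fold change was 0.57 ± 0.10, with an adjusted p-value of 0.0251 in edgeR. Fat4 rose by 0.55 ± 0.12 and Celsr1 by 0.44 ± 0.09 on the log2 scale, with adjusted p-values of 0.0398 and 0.0349 in edgeR. For all 3 genes each D_C library was above each ND_C library, as was so for 17 of the 92 pathway genes and 4.86% of all genes. The median log2 fold change of the list was 0.16, beside -0.0034 over all genes.

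Lhx1, a LIM homeobox transcription factor of the early nephron and 1 of the 7 duct transcription factors listed, fell in D_C. Its normalized counts were 2502, 2529, 2495 and 2259 in ND_C and 1945, 2036, 1830 and 1695 in D_C. The log2 fold change was -0.38 ± 0.07, with an adjusted p-value of 0.0284 in edgeR. All 4 calls were lost once the label date entered the fit, with log2 fold changes of 0.63 for Dchs1, 0.38 for Celsr1, 0.61 for Fat4 and -0.35 for Lhx1. DESeq2 called 16 genes of these lists and 1603 of all genes, beside 423 of all genes in edgeR. Leaving out ND_C 2 or ND_C 3 left 0 calls in the lists, with 0 and 2 over all genes. Leaving out ND_C 1, D_C 2, D_C 3 or D_C 4 left 1, with 71, 46, 61 and 17 over all genes. Leaving out D_C 1 gave 10, with 1551 over all genes. The list counts thus rose and fell with those of all genes, of which 2 were called with the label date.

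In lists without a call in D_C against ND_C, the gene with the smallest p-value was read. Lgr6, an R-spondin receptor, was at 166 ± 65.7 in D_C and 65.8 ± 32.2 in ND_C, with a log2 fold change of 1.34 ± 0.35 and an adjusted p-value of 0.06 in edgeR. Fzd6, a Frizzled receptor, had 0.64 ± 0.16 and an adjusted p-value of 0.0541. Apcdd1, a Wnt inhibitor that beta-catenin induces, had 0.91 ± 0.27 and 0.0905. Gfra4, the coreceptor for persephin, had 0.62 ± 0.19 and 0.0924, and the ligand Wnt9a 0.52 ± 0.19 and 0.162. None of these passed.

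Most collecting duct and medullary markers were higher in sign in D_C against ND_C, as were 12530 of all 25408 genes. This held for 7 of 8 principal cell, 6 of 8 intercalated and 6 of 6 inner medulla and thin limb markers. It was not limited to these lists, since 5 of 5 endothelium and 6 of 6 fibroblast and mural cell markers were also higher. The 5 proximal tubule and the 5 macrophage markers were all lower in sign. Aqp2 and Aqp3, water channels of principal cells, passed in edgeR with log2 fold changes of 1.69 and 0.60, as did Aqp6 of intercalated cells at 1.00. Fst and Slc4a11 were among the inner medulla and thin limb markers that passed, at 1.67 and 0.81. The vasopressin receptor Avpr2 of the principal cell list was at -0.20 and Foxi1, a transcription factor of intercalated cells, at -0.43, neither of which passed. For Avpr2, ND_C 4 was at 844, above the D_C libraries at 263 to 366. The other ND_C libraries were at 159 to 188, below every D_C library. Of the 8 principal cell markers 2 were called and of the 8 intercalated markers 1, all higher in D_C, beside 0.937% of all genes. The summed principal cell markers ran from 36644 to 56105 in D_C and from 26770 to 31198 in ND_C. In this sum Aqp2 alone ran from 9356 to 27158 in D_C and from 4197 to 7904 in ND_C. Scnn1b, Scnn1g and Hsd11b2 of the same list had log2 fold changes of 0.25, 0.18 and 0.12. The part of these markers in the differences of Wnt7b, Wnt4 and the pathway genes was not tested.

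In D_B12 against ND_B12, 2 of the 92 pathway genes passed, both lower, beside 0.563% of all genes. Etv5, an ETS transcription factor that RET signalling induces in bud tips, had normalized counts of 1810, 2392, 2583 and 2134 in ND_B12 and 1046, 1086, 1352 and 1724 in D_B12. It fell by a log2 fold change of -0.78 ± 0.16, with an adjusted p-value of 0.0418 in edgeR. The ligand Wnt5b was at 298, 378, 363 and 355 in ND_B12 and 240, 210, 212 and 203 in D_B12, with a log2 fold change of -0.69 ± 0.15 and an adjusted p-value of 0.0418. For both genes every D_B12 library was below every ND_B12 library, as was so for 6.57% of all genes.

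Of the 14 RET downstream genes and inhibitors, 11 were lower in sign in D_B12. For 8 of them the unadjusted p-value in edgeR was below 0.05, against 9.2% of all genes lower at that level. Lower signs were not limited to this list. They were found for 12 of 15 Wnt receptors, 7 of them at that level. Of the 18 Wnt secretion genes, agonists and inhibitors 16 were lower, 5 at that level. So were 6 of 8 principal cell and 6 of 8 intercalated markers. Higher in sign were 5 of 6 RET ligands and coreceptors, 6 of 9 other Wnt ligands and 5 of 6 inner medulla markers. The median log2 fold change of the RET downstream list was -0.29, beside 0.0027 over all genes. Notum, a secreted Wnt inhibitor, had -0.42 ± 0.10 and an adjusted p-value of 0.0641 in edgeR, Fzd5 -0.32 ± 0.08 and 0.0718, Celsr2 -0.27 ± 0.09 and 0.146, and the transcription factor Tcf7 -0.59 ± 0.22 and 0.194. None of these 4 passed. Neither Etv5 nor Wnt5b was called without D_B12 1, D_B12 2, D_B12 3, D_C 3, D_C 4, ND_B12 2, ND_B12 3, ND_C 1, ND_C 2 or ND_C 3. Over all genes, edgeR called 209 with all 16 libraries. It called 0 without D_B12 1, D_B12 2, D_B12 3 or ND_B12 2, and 1 without ND_B12 3. The others of these fits called 41 to 126. DESeq2 called 12 genes of the lists and 1146 of all genes. Upper-quartile normalization and the filter of 1 count called 0 of the lists, with 18 and 35 over all genes tested. The calls of Etv5 and Wnt5b were also lost with the label date, where 29 of all genes were called. Their adjusted p-values were then 0.0742 and 0.262 in edgeR, and their log2 fold changes -1.41 and -0.78.

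**Figure D5:**
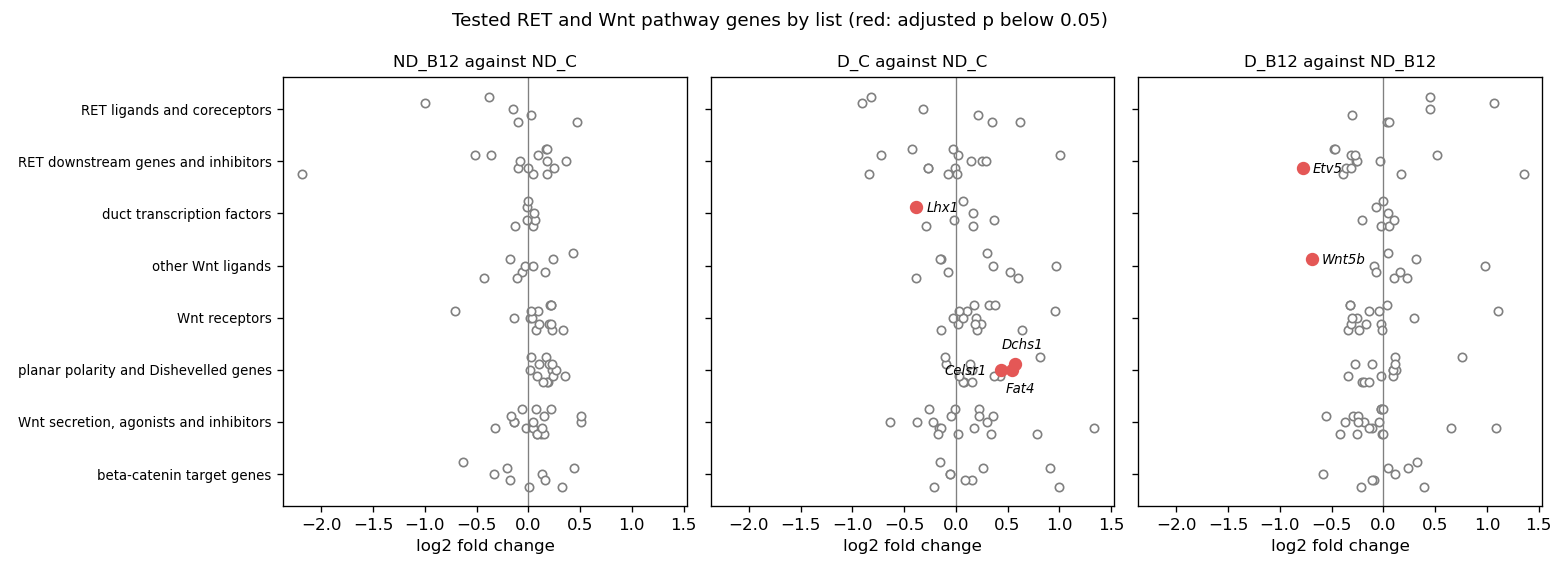
Log2 fold changes of the 92 tested pathway genes in the 3 tested comparisons, 1 point per gene in the row of its list, the height within a row only separating points. Red points, named, passed an adjusted p-value of 0.05, with 0 in ND_B12 against ND_C, 4 in D_C against ND_C and 2 in D_B12 against ND_B12.

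In D_B12 against D_C the pathway genes are values with no test, since the contrast chose Wnt11. Groups did not overlap for 3 of the 92 genes with D_B12 higher and 6 with D_B12 lower. Over all genes they did not overlap for 6.58%, and for 3.18% with D_B12 lower. By the largest change in each list among genes whose groups do not overlap, the list genes were Gfra3 at 0.88, Lhx1 at 0.30, Ror2, a receptor for WNT5A, at -0.51, Dvl3 at 0.24 and Rnf43, a ligase that removes Frizzled receptors, at -0.50 on the log2 scale. Lhx1 was thus lower in D_C than in both ND_C and D_B12, and the 2 comparisons share the D_C libraries. Rnf43 was at 713, 621, 656 and 672 in D_C and at 560, 401, 444 and 481 in D_B12. Of the 92 genes, 67 were lower and 25 higher in sign, with a median of -0.15. Over all 25408 genes, 12724 were lower and 12683 higher in sign, with a median of -0.0004.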

How the data were processed

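Kidney RNA of 16 mice was sequenced as 50 bp paired reads. Per the labels and methods, the authors aligned reads to GRCm39 with STAR and GENCODE vM35 and deposited an estimated count per gene and per transcript, from StringTie through its prepDE tool. These expected counts were already whole numbers. The methods assign strand from intron motifs in the alignment and state no strand setting for counting. Columns were matched to libraries by the number in the library name, with 0 left over.

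Genes with at least 100 counts in total (25408 of 57186) were fitted in R 4.3.3 with edgeR 4.0.16, by its quasi-likelihood test with TMM, all 16 libraries in 1 fit, a mean per labelled group and Benjamini-Hochberg adjustment over all genes at 0.05. Tests were two-sided, and the fit was tested on simulated data. Biological variation between libraries (common coefficient 0.201 in edgeR) exceeded counting error except for genes with few counts. Nothing beyond the labels says that libraries of a group are separate cages or litters, so p-values measure the spread between these samples. Within groups no pair of libraries was a duplicate, and Pearson's r of log2 CPM was at most 0.985 over all 120 pairs. Likeness used log2 CPM with a prior count of 2. Positions come from GENCODE vM39 of the same build, and promoter sequences from RefSeq.

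The members and lists were chosen with earlier results of these data known. Members were not tested in D_B12 against D_C, and Wnt11 was tested only in ND_B12 against ND_C. Genes named are the members, every listed pathway gene called, otherwise the gene of a list with the smallest p-value below 0.05, in D_B12 against D_C the largest change among those whose groups do not overlap, and the 5 genes most like Wnt11 by each measure. Duct and medullary markers with a call are also named. Some items are not reported here. Library sets of the Wnt genes and Gfra1 were described after their values were seen. Alternatives were DESeq2 1.42.0, upper-quartile normalization, a filter of 1 count, filterByExpr, the label date as covariate, the replicate number as a block, the compared groups alone and each library left out. Leaving out ND_B12 4 with D_C 1, or ND_C 3 with ND_B12 1 and ND_B12 4, was added after seeing the data.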

Additional observations from a re-analysis of the deposited data

Results flagged for a closer look

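Of 28 sets of 4 libraries, 7 genes in each of 4 groups, 6 had 1 library far from the other 3 by Dixon's ratio, where chance flags about 1 in 20. All 6 were high values of the 3 Wnt genes and came from 3 libraries. In ND_C 1, Wnt4 had a normalized count of 242 while the others ran from 109 to 129, and Wnt9b had 370 while the others ran from 119 to 151. In ND_B12 2, Wnt4 had 249 against 70.9 to 98.6, and Wnt9b had 390 against 119 to 161. In D_B12 1, Wnt7b had 1035 against 335 to 371, and Wnt9b had 734 against 104 to 123. The genes are not independent, since these libraries were high for all 3. No library was far from its group by this ratio for Wnt11, Ret, Gdnf or Gfra1.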

How the results depend on the processing

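In ND_B12 against ND_C no alternative called a member or a pathway gene. In D_C against ND_C the number of members called was 0 and became 1 (Gfra1) without ND_B12 4 and D_C 1, and 0 to 1 when single libraries were left out. The number of pathway calls, 4, became 16 with DESeq2, 2 (Dchs1 and Axin2) with the compared groups alone, 0 with the label date, 2 with the filter of 1 count, 11 without ND_B12 4 and D_C 1, 1 (Lgr6, with all 4 calls lost) without ND_C 3, ND_B12 1 and ND_B12 4, and 0 to 10 with single libraries left out. In D_B12 against ND_B12 the 0 members became 1 (Gfra1) with DESeq2 and without ND_B12 4 and D_C 1, and 0 to 1 with single libraries left out. The number of pathway calls, 2, became 12 with DESeq2, 1 (Wnt5b) with the compared groups alone, 1 (Spred2, with Etv5 and Wnt5b lost) with the date, 0 with the filter of 1 count, 0 with upper-quartile normalization, 6 without ND_B12 4 and D_C 1, 0 without the 3 libraries, and 0 to 3 with single libraries left out. Calls over all genes tested shifted as well. In D_C against ND_C, 423 became 1603 with DESeq2, 182 with the compared groups alone and 2 with the date. With the filter of 1 count the number was 63, and with single libraries left out 0 to 1551. In D_B12 against ND_B12, 209 became 1146, 191 and 29 in the same order, and 18 with upper-quartile normalization. The filter of 1 count gave 35 there, and single libraries left out gave 0 to 438. The cause of these shifts was not tested.

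Same-numbered libraries correlated between -0.183 and 0.168 in their deviations, 3 of 24 pairs above 0.1, so the numbers do not pair the mice. With the replicate block the pathway calls in D_B12 against ND_B12 became 0, with Etv5 at -0.80 (adjusted p-value 0.0562 in edgeR) and Wnt5b at -0.69 (0.0741), and Wnt4 and Wnt7b turned to -0.013 and -0.039 on the log2 scale.

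Fold changes that turned sign were of members and of Tcf7, none of them called. In ND_B12 against ND_C, Gfra1 became 0.28 without ND_B12 4 and D_C 1 and 0.25 without the 3 libraries, Wnt4 0.41 with the date and 0.066 without the 3, Wnt7b -0.0027 without the 3, and Wnt9b -0.019 with upper-quartile normalization. In D_C against ND_C, Ret became -0.22 without ND_B12 4 and D_C 1. In D_B12 against ND_B12, Ret became 0.92 and Tcf7 0.011 with the date, Gdnf 0.18 and Wnt4 -0.12 without the 3 libraries, and Wnt7b -0.063 without ND_B12 4 and D_C 1 and -0.0076 without the 3. With single libraries left out in ND_B12 against ND_C, the log2 fold change ran from -0.67 to 0.10 for Gdnf, -0.16 to 0.28 for Gfra1, -0.75 to 0.135 for Wnt4, -0.18 to 0.24 for Wnt7b and -0.56 to 0.50 for Wnt9b. In D_C against ND_C it ran from -0.23 to 0.29 for Ret. In D_B12 against ND_B12 it ran from -1.11 to 0.044 for Gdnf, -0.58 to 0.76 for Wnt4, -0.54 to 0.25 for Wnt7b and -0.79 to 1.01 for Wnt9b. Gdnf and Ret are limited by depth, with medians of 10.8 and 23.8 normalized counts.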

Other observations

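The deposited counts per transcript give a view of the members that the comparisons do not use. For Wnt11, 64.0% of the normalized counts were assigned to 3 transcripts of the first start and 33.3% to 2 transcripts of the second. Wnt11-202 of the first start and Wnt11-204 of the second are annotated as targets of nonsense-mediated decay. Wnt11-202 had 19.65 in ND_B12 1, 44.05 in D_C 1 and 47.99 in D_C 3, and none elsewhere. Wnt11-204 had 8.89 in D_C 3 only. The assignment varied between libraries of a group. ND_C 4 had 71.0 for the first start and 0 for the second, while ND_C 1 had 16.0 and 45.9. In D_B12 the first start had 22.1, 6.40, 40.5 and 18.2 and the second 0, 29.9, 0 and 0.

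Gfra1 was divided in the same manner. Gfra1-201 held most of the counts in 9 libraries and Gfra1-203 in 7, and each had no count in some libraries. Ret-201 held most of the Ret counts in 10 libraries and Ret-202 in 5. Wnt4, Wnt9b and Gdnf had a single transcript in the table. No group was compared by transcript.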
